A study of Mus musculus with 6 samples.

Results

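Creatine and guanidino metabolism was followed through 7 genes chosen by name from the 24422 genes of the deposited count tables: Gatm and Gamt, the enzymes of creatine synthesis, Slc6a8, the creatine transporter, the creatine kinases Ckb, Ckmt1 and Ckm, and Agmat, which breaks down agmatine. They were measured by RNA sequencing in the kidneys of 6 wild type C57BL/6 pups at postnatal day 15. The 3 FeD pups came from dams given an iron-deficient diet of 2 to 6 ppm iron and the 3 control pups from dams given 220 ppm iron. Each diet began when the dams were 8 weeks old, 1 month before mating, and went on through pregnancy and nursing to the day of collection. The labels do not say which pups shared a litter. Diet and litter therefore cannot be told apart. Every P value below sets the difference between the groups only against the spread between kidneys of the same group.

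Creatine begins in the kidney, where Gatm (arginine:glycine amidinotransferase) moves the amidino group of arginine onto glycine and yields guanidinoacetate and ornithine. Gamt (guanidinoacetate methyltransferase) then adds a methyl group from S-adenosylmethionine, a step for which the liver is the main site. Creatine enters cells through Slc6a8, and the creatine kinases pass phosphate between ATP and creatine, so that phosphocreatine serves as a store and a shuttle of high-energy phosphate. Agmat (agmatinase) belongs to a side branch in which agmatine, a guanidino compound made from arginine, is cleaved to putrescine and urea.

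Synthesis, kinase and agmatinase transcripts were lower in FeD kidneys, while the transcript of the creatine transporter was not distinguishable between the diets. Gatm stood at 40.1% of the control level, Ckb at 28.2%, Gamt at 22.1%, Agmat at 15.0% and Ckmt1 at 63.6%. Slc6a8 stood at 93.9% with overlapping groups, and Ckm was nearly absent from both. Thus 4 of the 7 genes (Gatm, Gamt, Ckb and Agmat) were called lower at an adjusted P under 0.05 and at least a 2-fold difference, against 5.69% of the 15145 genes tested. None was called higher at that threshold, where 4.34% of tested genes were. With no fold threshold 5 of the 7 were lower, against 23.3% of tested genes, and 0 were higher, against 22.4%. At an unadjusted P under 0.05 edgeR again gave 5 lower and 0 higher, against 27% and 26.6% of tested genes. DESeq2 gave the same counts at that threshold, against 19.3% and 19.8% of the 19928 genes it tested. In 5 of the 7, each FeD kidney lay below each control kidney, an arrangement found in 29.7% of tested genes, while 28.4% had each FeD kidney above each control kidney. Agmat entered the test only through the control kidneys, since its FeD counts were below the low-count filter. With FeD counts this low, Agmat could enter only with higher control counts, so the counts above are not independent of that filter. The median log2 difference (FeD minus control) of the 6 members tested was -1.57, beside -0.0018 for the tested genes together. The members were chosen with earlier results of these data known. Their counts and median therefore describe these genes and do not test them as a group.

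**Figure D1:**
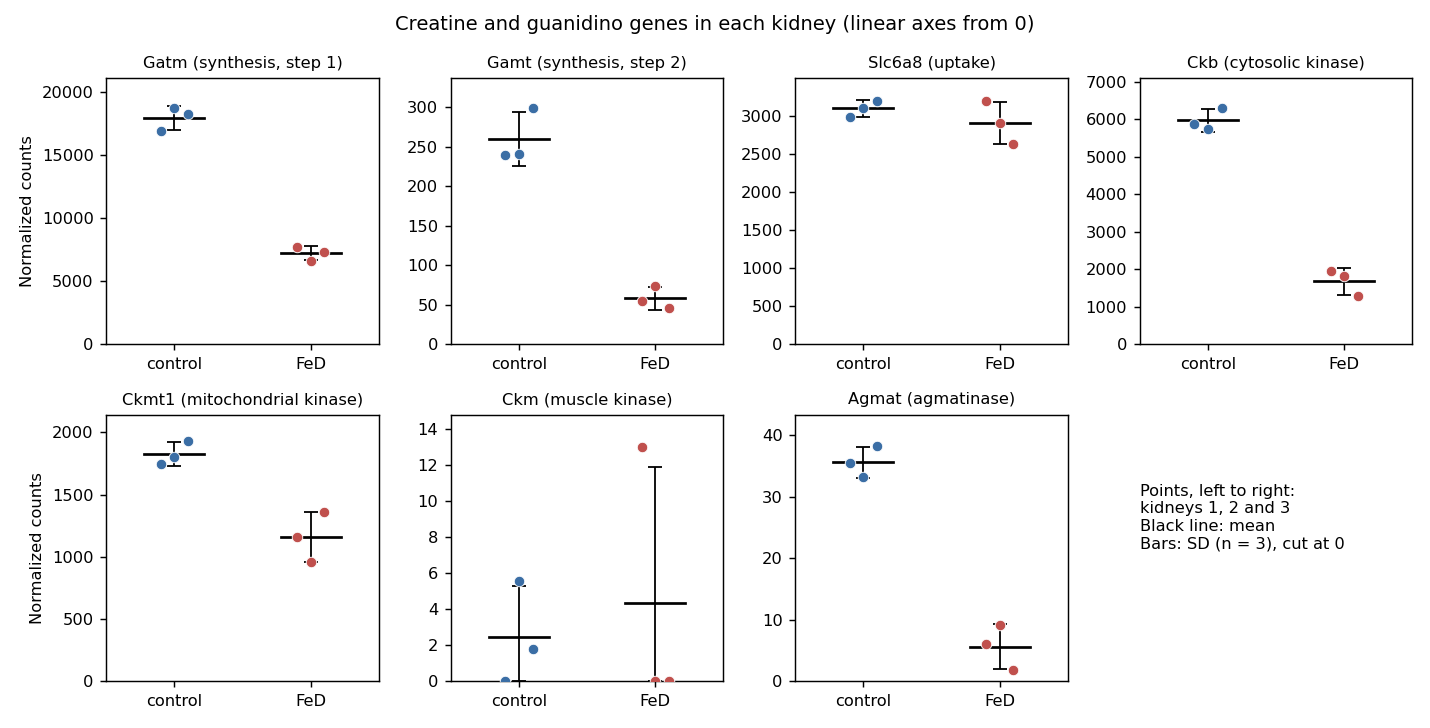
Normalized counts (vertical axes, linear, from 0) of the 7 genes in each control (blue) and FeD (red) kidney, with the mean as a line and the SD as bars (n = 3, cut at 0). The FeD points of Gatm, Gamt, Ckb, Ckmt1 and Agmat lie below the control points, those of Slc6a8 overlap them, and Ckm has at most 13.0 normalized counts in any kidney.

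The sequences before the start sites of the 4 genes called at least 2-fold lower are shown because these genes moved in the same direction. They are RefSeq promoter windows of GRCm38.p6, the 250 bases before the start, 5′ to 3′ on the gene's strand. Each was placed on mm9 (NCBIM37) by an exact match of the window. The window of Gatm lay at chr2:122437014-122437263 (minus strand), that of Gamt at chr10:79723758-79724007 (minus), that of Ckb at chr12:112910550-112910799 (minus) and that of Agmat at chr4:141302340-141302589 (plus). The promoter table held 6 of the 7 genes and no entry for Slc6a8. Capitals mark matches, on either strand, to 5 short motifs: ACGTG and GCGTG (cores of the hypoxia response element), CCAAT (the CCAAT box), TATAA (the TATA box) and AGGTCA (the nuclear receptor half-site).
Gatm: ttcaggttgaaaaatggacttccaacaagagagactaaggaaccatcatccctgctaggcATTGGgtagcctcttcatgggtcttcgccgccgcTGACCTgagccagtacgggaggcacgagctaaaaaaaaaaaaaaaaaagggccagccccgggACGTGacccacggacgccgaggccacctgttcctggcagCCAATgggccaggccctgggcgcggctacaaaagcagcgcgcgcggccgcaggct
Gamt: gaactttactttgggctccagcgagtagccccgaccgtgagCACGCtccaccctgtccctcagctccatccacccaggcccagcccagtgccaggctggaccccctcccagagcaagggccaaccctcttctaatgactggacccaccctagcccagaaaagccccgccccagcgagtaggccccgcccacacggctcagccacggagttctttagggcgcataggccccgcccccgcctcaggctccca
Ckb: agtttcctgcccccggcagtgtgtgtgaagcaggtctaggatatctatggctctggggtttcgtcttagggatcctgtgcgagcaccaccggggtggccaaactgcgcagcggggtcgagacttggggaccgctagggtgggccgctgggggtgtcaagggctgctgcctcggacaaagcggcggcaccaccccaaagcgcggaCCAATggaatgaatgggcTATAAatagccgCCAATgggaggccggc
Agmat: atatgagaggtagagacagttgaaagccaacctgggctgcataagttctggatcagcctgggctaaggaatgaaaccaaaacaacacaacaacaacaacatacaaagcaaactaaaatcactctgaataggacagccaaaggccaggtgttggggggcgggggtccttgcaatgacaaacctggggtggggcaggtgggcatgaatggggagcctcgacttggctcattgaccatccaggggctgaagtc

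These letters are common. Of 32851 RefSeq windows of this length, 16.6% held ACGTG, 28.2% GCGTG, 33.8% CCAAT, 22.8% TATAA and 14.0% AGGTCA. The Gatm window held ACGTG with its first base at -94, CCAAT at -55 and, reversed, at -190, and AGGTCA reversed at -156, where -1 is the base just before the start site. In Gamt the only match was a reversed GCGTG at -209. Ckb had CCAAT at -46 and -16 around a TATAA at -28. The Agmat window held none of these letters. No motif was shared by the 4 windows, and a match or its absence here describes the letters alone.

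Gatm (chr2:122420203-122437039, minus strand, mm9) was the most abundant of these transcripts. Control kidneys 1, 2 and 3 held 16923, 18749 and 18273 normalized counts (counts scaled by the trimmed mean of M values, TMM, to the mean library size), and FeD kidneys held 7724, 6636 and 7294. The highest FeD kidney was below the lowest control kidney by more than the range within either group. The means were 17982 ± 947 and 7218 ± 548 (SD, n = 3 each), a log2 difference of -1.32 (SE 0.086, 95% confidence interval -1.51 to -1.12) with an adjusted P of 3.5e-05 (edgeR quasi-likelihood test, Benjamini-Hochberg). Among tested genes, 3.86% had a lower log2 difference.

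Gamt (chr10:79720896-79723757, minus strand), the methyltransferase of the final step, was far less abundant. Its control kidneys held 239.8, 241.3 and 299.1 normalized counts, and its FeD kidneys 55.0, 74.0 and 45.8. The groups did not overlap, and control kidney 3 stood above the other controls. From 260.0 ± 33.8 the mean was lower at 58.3 ± 14.4, a log2 difference of -2.18 (SE 0.19, 95% confidence interval -2.62 to -1.73, adjusted P 0.00012, edgeR with Benjamini-Hochberg). Only 1.14% of tested genes lay lower. The FeD kidneys rested on 53 to 57 raw reads each, against 218 to 336 in controls, and FeD kidney 2, the highest of its group, had the smallest library (13732173 counts).

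Both steps of synthesis were lower, though not in the same proportion. Per read of Gamt, the control kidneys held 70.6, 77.7 and 61.1 reads of Gatm, and the FeD kidneys 140, 89.6 and 159. The FeD ratios were thus all higher, with a wide spread from the few Gamt reads.

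Slc6a8 (chrX:70918489-70927841, plus strand), which carries creatine into cells with sodium and chloride, stood apart from the synthesis genes. It had 2990, 3111 and 3203 normalized counts in control kidneys and 3194, 2910 and 2638 in FeD kidneys. FeD kidney 1 lay within the control range and the other FeD kidneys below it. The means of 3101 ± 107 and 2914 ± 278 gave a log2 difference of -0.09 (SE 0.078), with an adjusted P of 0.38 (edgeR with Benjamini-Hochberg). The 95% confidence interval of that difference ran from -0.27 to 0.09 and did not reach the interval of Gatm. Raw reads of Gatm per read of Slc6a8 were 5.66, 6.03 and 5.71 in control kidneys and 2.42, 2.28 and 2.77 in FeD kidneys, a ratio within each library that does not depend on the scaling.

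Ckb (chr12:112907566-112910549, minus strand), the cytosolic brain-type creatine kinase, is the form known from epithelia and brain. In control kidneys it reached 5869, 5735 and 6309 normalized counts and in FeD kidneys 1963, 1808 and 1279. FeD kidney 3 was the lowest, and the FeD range lay well below the control range. The mean was lower by 1.83 on the log2 scale, at 1683 ± 359 against 5971 ± 301 (log2 difference -1.83, SE 0.15, 95% confidence interval -2.16 to -1.49, adjusted P 7.4e-05, edgeR with Benjamini-Hochberg). The log2 differences of 1.82% of tested genes were lower. A processed copy of the transcript, the pseudogene Gm12892 at chr4:121756105-121757537, is 95.4% identical over 95.5% of the Ckb transcript, and 10.9% of the 100-base windows of Ckb are identical in both. The count tables have no entry for Gm12892, and the study's methods state that uniquely mapped reads alone were used, so reads that match both places equally well would not be in the Ckb counts of either group. With up to 2 differences allowed, 40.3% of the 100-base windows of Ckb match the copy. Whether reads of the copy entered the Ckb counts was not tested.

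Ckmt1 (chr2:121183450-121189473, plus strand), the ubiquitous mitochondrial creatine kinase, showed a smaller difference. Its values were 1744, 1800 and 1932 normalized counts in control kidneys and 1159, 956 and 1357 in FeD kidneys. The ranges did not meet, and FeD kidney 3, lowest for Ckb, was here the highest FeD kidney. Ckmt1 fell from 1825 ± 97.0 to 1157 ± 200.3, a log2 difference of -0.65 (SE 0.12, 95% confidence interval -0.92 to -0.39, adjusted P 0.0026, edgeR with Benjamini-Hochberg). This passed the adjusted P without reaching a 2-fold difference, and 12.2% of tested genes lay lower.

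Ckm (chr7:19996443-20006932, plus strand), the muscle creatine kinase, was hardly detected. Its raw counts were 0, 5 and 2 in control kidneys and 13, 0 and 0 in FeD kidneys, too few to enter the test. Of its exon bases, 31.9% are shared with A930016O22Rik on the opposite strand, and whether the counting used strand is not given in the sources used here. FeD kidney 1, which held all 13 FeD reads, also held 112 reads of Acta1 (skeletal actin) and 172 of Myh1 (a fast skeletal myosin), against at most 11 and 0 in the other kidneys. The mitochondrial kinase of striated muscle, Ckmt2, had 2 reads each in control kidney 3 and FeD kidney 1 and 0 in the others. A count of 0 allows up to 3 reads, or 0.144 to 0.218 CPM (counts scaled to the library total) in these libraries, by counting error alone.

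Agmat (chr4:141302587-141315178, plus strand) was the least abundant of the 6 tested transcripts. Its control kidneys held 35.5, 33.2 and 38.3 normalized counts and its FeD kidneys 6.00, 9.09 and 1.73. The raw reads behind these were 37, 30 and 43 against 6, 7 and 2. The groups did not overlap, and the FeD kidneys were near the limit of detection. The mean of 35.7 ± 2.54 became 5.61 ± 3.70, a log2 difference of -2.74 (SE 0.44, 95% confidence interval -3.75 to -1.72, adjusted P 0.0017, edgeR with Benjamini-Hochberg). Because Agmat entered the test through its control kidneys alone, neither this P value nor the lack of overlap is independent of the low-count filter. Scaled for library size, the 15 FeD reads amounted to 14.3% of the 110 control reads, with an exact Clopper-Pearson interval of 7.74% to 24.6% that covers counting error only.

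**Figure D2:**
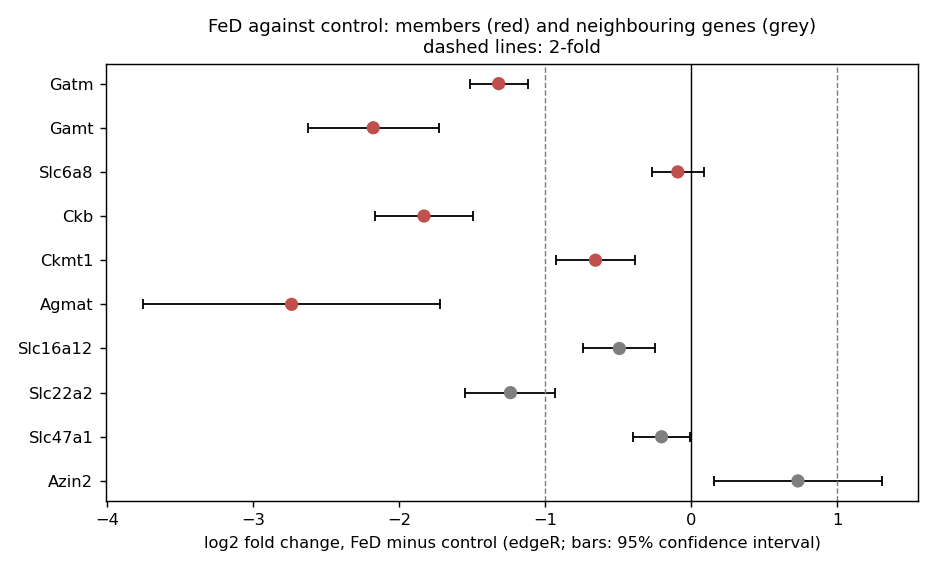
Log2 difference (FeD minus control, horizontal axis) of the tested members and of related genes, with the 95% confidence interval from the edgeR fit as bars. The intervals of Gatm, Gamt, Ckb, Ckmt1 and Agmat lie below 0, and that of Slc6a8 (-0.27 to 0.09) includes it.

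Levels of different genes were compared as RPKM, the normalized reads scaled to exon length and library total. In control kidneys the order was Gatm (335.4 ± 17.7 RPKM), Ckb (226.1 ± 11.4), Ckmt1 (40.9 ± 2.18), Slc6a8 (33.3 ± 1.15), Gamt (10.1 ± 1.31), Agmat (1.42 ± 0.101) and Ckm (0.0964 ± 0.112). Neighbours in that order did not overlap in their kidneys. In FeD kidneys Gatm (134.6 ± 10.2 RPKM) and Ckb (63.8 ± 13.6) were again at the head of the order, followed by Slc6a8 (31.3 ± 2.99) and Ckmt1 (25.95 ± 4.49). Those last ranges, 28.3 to 34.3 and 21.4 to 30.4 RPKM, overlapped, so their order in FeD kidneys was not resolved. Gamt followed at 2.26 ± 0.559 RPKM and Agmat at 0.223 ± 0.147, with Ckm at 0.172 ± 0.297, whose ranges also overlapped.

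**Figure D3:**
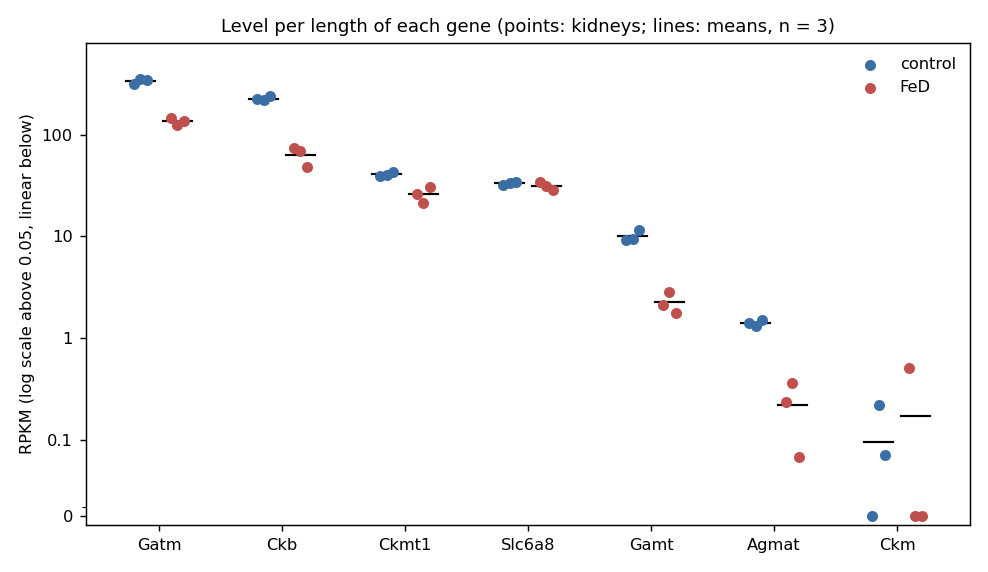
RPKM (log axis) of the 7 genes in each control (blue) and FeD (red) kidney. Gatm (335.4 RPKM in control, 134.6 in FeD) and Ckb (226.1 and 63.8) lead in both groups, while the FeD kidneys of Ckmt1 (21.4 to 30.4) and Slc6a8 (28.3 to 34.3) overlap.

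The creatine kinases together came to 261.3, 257.7 and 282.4 RPKM in control kidneys and 100.9, 89.9 and 78.9 in FeD kidneys. The FeD sum was 33.6% of the control sum. Ckb made up 85.0%, 84.3% and 84.6% of the summed RPKM in control kidneys and 73.7%, 76.2% and 61.4% in FeD kidneys. Ckmt1 supplied nearly all the rest, 15.3% ± 0.349 in control and 29.4% ± 8.01 in FeD kidneys. The summed kinase transcript level of FeD kidneys was thus lower and held a larger part of Ckmt1 transcript, most of all in FeD kidney 3. In raw reads, which need no gene length, Ckb outnumbered Ckmt1 by 3.37, 3.19 and 3.26 to 1 in control kidneys and by 1.69, 1.89 and 0.943 to 1 in FeD kidneys.

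**Figure D4:**
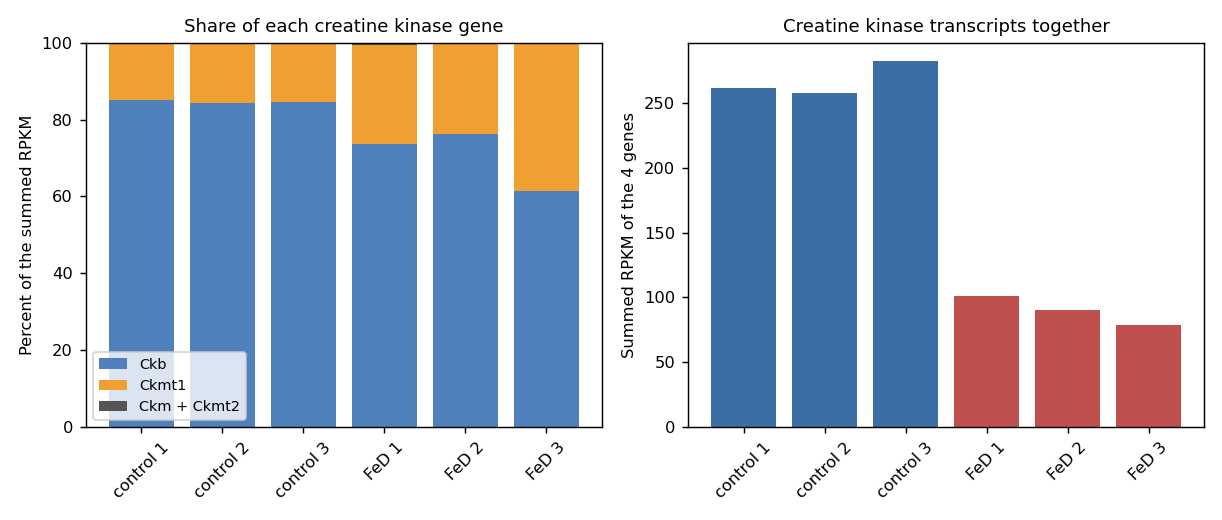
Left, the share of each creatine kinase gene in the summed RPKM of each kidney, in percent, with Ckm and Ckmt2 drawn together. Right, the summed RPKM of the creatine kinases in each kidney (vertical axis, linear, from 0). The sums of the control kidneys, 257.7 to 282.4, lie above those of the FeD kidneys, 78.9 to 100.9, and the share of Ckb is smaller in each FeD kidney.

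Other genes of creatine and creatinine handling differed among themselves. Slc22a2 (chr17:12777055-12821331), an organic cation transporter that takes up creatinine, fell from 1955 ± 106 to 827 ± 175 normalized counts (log2 difference -1.24, SE 0.13, adjusted P 0.00028, edgeR with Benjamini-Hochberg). Slc16a12 (chr19:34742893-34821779), a creatine exporter, fell less, from 2575 ± 93.5 to 1830 ± 292 (-0.49, SE 0.11, adjusted P 0.0066, by the same edgeR test and adjustment). Slc47a1, which exports creatinine into urine, was at 5478 ± 177 and 4763 ± 480, a log2 difference of -0.20 that did not pass (adjusted P 0.084, edgeR with Benjamini-Hochberg). Azin2, annotated there as Adc and once described as an arginine decarboxylase, rose from 125 ± 16.4 to 209 ± 72.5 (0.73, SE 0.25, adjusted P 0.042, edgeR with Benjamini-Hochberg). Its lowest FeD kidney (138.2) barely cleared its highest control kidney (137.1).

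The pathways that feed the members or take up their products were read in hand-made lists. Like the members, these lists and the marker lists below were chosen with earlier results of these data known. Their counts are a description and not a test. Over all tested genes, 23.3% were lower and 22.4% higher at an adjusted P under 0.05. Of 16 tested genes of arginine and ornithine metabolism, which supplies Gatm, 8 were lower and 2 higher (median log2 difference -0.32). Arg2, the mitochondrial arginase, rose from 477 ± 8.03 to 2102 ± 259 normalized counts (2.14, adjusted P 8.9e-06, edgeR with Benjamini-Hochberg), and Slc7a2, a cationic amino acid transporter, from 138 ± 14.4 to 366 ± 99.3 (1.41). Nos2, the inducible nitric oxide synthase, fell from 103 ± 35.8 to 8.59 ± 3.10 (-3.57, adjusted P 0.00024, edgeR with Benjamini-Hochberg). Its raw reads were 149, 83 and 83 in control and 5, 8 and 12 in FeD kidneys. Like Agmat, it passed the low-count filter through its control kidneys. Ass1, which makes argininosuccinate on the way to arginine, fell from 15992 ± 873 to 9927 ± 3920 (-0.69). The genes around Gatm's substrate thus moved in both directions.

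Methyl donor genes, a list wider than the Gamt step, were lower in 12 of 22 tested and passed in neither direction in the other 10 (median -0.38). Among those 10 were the genes nearest to S-adenosylmethionine, Mat2a (-0.22), Mat2b (0.16) and Ahcy (-0.15). Dmgdh, the dimethylglycine dehydrogenase, fell from 845 ± 52.6 to 211 ± 29.6 normalized counts (25.0% of control, adjusted P 2e-05, edgeR with Benjamini-Hochberg), and Bhmt2, a homocysteine methyltransferase, fell from 1163 ± 112 to 487 ± 30.4 (-1.26). Chdh, which turns choline toward betaine, had a log2 difference of -0.92. Polyamine genes, downstream of Agmat's putrescine, were lower in 6 and higher in 1 of 11 tested (median -0.28). The gene that rose was Sat1, which acetylates spermidine and spermine for their removal, at 7086 ± 416 against 3608 ± 154 (0.97), while Odc1, the ornithine decarboxylase that makes putrescine by the other route, fell from 4073 ± 178 to 2478 ± 545 (-0.71). Oaz1 and Amd1 of that list are listed at 0 in every kidney. Of 18 tested genes of adenylate energy buffering, the partner system of the creatine kinases, 9 were lower and 2 higher (median -0.20). The adenylate kinases Ak4 (6085 ± 235 to 2684 ± 668, -1.18) and Ak1 (1000 ± 64.3 to 454 ± 28.0, -1.14) fell by similar amounts. Together with the genes of creatine and creatinine handling, the 5 lists held 71 tested genes, of which 37 were lower and 6 higher. The shares over all tested genes were 23.3% lower and 22.4% higher.

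**Figure D5:**
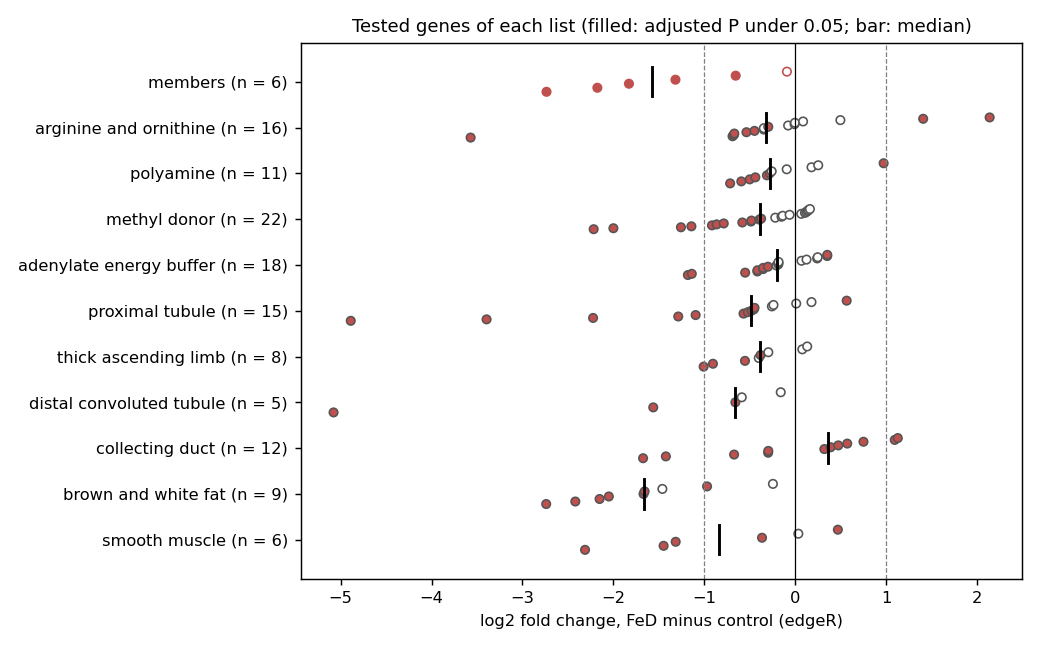
Log2 difference (FeD minus control, horizontal axis) of the tested genes of the members and of pathway and cell marker lists. Each gene is 1 point (filled where the adjusted P is under 0.05), with the list median as a bar. The other genes of creatine and creatinine handling and the skeletal muscle, adrenal and red cell markers are not drawn. The members' median (-1.57) is the lowest of the pathway groups, whose medians lie between -0.38 and -0.20, and the fat markers lie at a median of -1.67.

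Segment markers of the nephron differed between the diets by segment. Their counts stand beside 23.3% lower and 22.4% higher over all tested genes. Marker sums from here on are in CPM scaled by TMM, as the normalized counts were. In a bulk sample, fewer cells of a type and less RNA per cell cannot be told apart. Of 15 proximal tubule markers, the segment in which Gatm is known to be made, 10 were lower and 1 higher (median -0.48), and their summed level was 12500 to 13500 CPM in control and 6990 to 7580 CPM in FeD kidneys. Within the list, Slc5a2 (the glucose cotransporter SGLT2) had a log2 difference of -4.89 and Lrp2 (megalin) one of -0.48. The log2 difference of Gatm (-1.32) was below those of 12 of the 15 markers and above those of the other 3, Slc5a2, Miox (-3.39) and Slc34a1 (-2.22), so Gatm was lower relative to some markers of the segment and higher relative to others. Thick ascending limb markers were lower in 4 of 8 (median -0.39), with sums of 6820 to 7260 CPM and 5000 to 8180 CPM that overlapped. The log2 difference of Ckb (-1.83) was below those of the 8 markers, of which Bsnd, a chloride channel subunit, was lowest (-1.01). Distal convoluted tubule markers were lower in 3 of 5, with sums of 1800 to 2450 and 788 to 981 CPM. There the log2 difference of Ckb was above that of Pvalb (-5.08, on 9, 17 and 4 FeD reads). It was below those of the other markers of that list, of which Slc12a3 was lowest (-1.56). Collecting duct markers split into 5 lower and 7 higher of 12, with sums of 1920 to 2540 and 2480 to 3650 CPM. The part of any segment in the members' differences was not tested.

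Markers of tissue around the kidney also differed. The same shares of all tested genes, 23.3% lower and 22.4% higher, stand beside these counts. Brown and white fat, in which Ckb and Gatm are also made, had 7 of 9 tested markers lower, with sums of 245 to 264 CPM in control and 58.0 to 71.2 CPM in FeD kidneys. Its defining marker Ucp1 fell from 821 ± 188 to 119 ± 125 normalized counts (-2.74, adjusted P 0.0081, edgeR with Benjamini-Hochberg). Smooth muscle markers, another source of Ckb, were lower in 4 and higher in 1 of 6, with sums of 532 to 583 and 424 to 490 CPM. The part of fat and smooth muscle in the lower Ckb was not tested. Of 15 skeletal muscle markers 6 could be tested and 1 was lower, with sums of 9.52 to 11.4 CPM in control and 6.91 to 36.7 CPM in FeD kidneys, the highest being FeD kidney 1. Of 6 adrenal markers 3 could be tested and 2 were higher, with sums of 7.72 to 72.0 CPM and 13.7 to 599 CPM. Those 2 were Star and Mc2r. Star had 173, 142 and 140 reads in control kidneys and 179, 2817 and 219 in FeD kidneys, so it rested mostly on FeD kidney 2. Mc2r, with 8, 1 and 5 control reads against 48, 194 and 42 FeD reads, passed the low-count filter through its FeD kidneys. FeD kidney 2 carried 1828 reads of Cyp11b1 and control kidney 1 carried 1032 of Hsd3b1, both enzymes of adrenal steroid synthesis. Of 8 red cell markers the 6 globin genes are listed at 0 in every kidney, and the other two gave sums of 18.9 to 47.9 and 5.17 to 23.7 CPM.

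The kidneys that carried muscle or adrenal transcripts were left out one at a time, and not together. Without FeD kidney 1 the log2 differences were -1.35 for Gatm, -2.13 for Gamt, -1.94 for Ckb, -0.63 for Ckmt1 and -2.82 for Agmat. Without FeD kidney 2 they were -1.24, -2.35, -1.86, -0.51 and -3.20 in the same order, and without control kidney 1 the same 5 genes still passed.

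Genes with the profile most like that of each tested member were taken as those with the smallest root mean square difference of log2 values centred on each gene's mean over the 6 kidneys, among 12928 genes. Closest to Gatm were Tcea3, a transcription elongation factor (0.0368), and Nupr1, a stress-responsive nuclear protein (0.0516). For Gamt they were Glod5 (0.126) and Npy1r, a receptor of neuropeptide Y (0.141), and for Ckb Kcne1l (0.109) and Slc22a18 (0.110). Ckmt1 was closest to Hnf4aos (0.0311), which is antisense to Hnf4a and uncertain without strand, and to Fam20c, a kinase of secreted proteins (0.0348). Slc6a8 was closest to Pqbp1 (0.0164) and Napa (0.0213), neither of which passed the test. Agmat was closest to Slc22a12, the urate transporter of the proximal tubule (0.166), and Mogat2 (0.182). Slc22a12 fell from 3943 ± 308 to 770 ± 345 normalized counts, a log2 difference of -2.37 beside -2.74 for Agmat.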

How the data were processed

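From polyadenylated RNA of each kidney the authors made TruSeq libraries, and they deposited raw counts of reads per gene for each kidney without normalization or pooling, from uniquely mapped reads by the study's methods. The submitters' processing notes name CASAVA 1.8.2, Trimmomatic, TopHat2 2.0.11, HTSeq and mm9. The annotation, counting mode and strand setting are not given in the sources used here. The study's own test was DESeq2.

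The tables listed 24422 genes and were read in R 4.3.3. After filterByExpr (minimum count 10) 15145 genes, among them 6 of the 7 members, were compared between 3 FeD and 3 control kidneys by edgeR 4.0.16 (TMM, glmQLFit, glmQLFTest) with Benjamini-Hochberg adjustment. The SE was the size of the log2 difference divided by the square root of F. Library totals were 16189041 to 20374327 in control and 13732173 to 20853293 in FeD kidneys, and kidneys of a group differed by more than counting noise. RPKM used the union of exons of the NCBIM37 annotation. On simulated counts edgeR recovered 198 of 200 changed genes among 15312 tested. Their fitted log2 differences had a median size of 1.98, and every gene was given the same spread. With 3527 genes lower and 3397 higher in the real data, and unequal spreads, this recovery does not carry over to them.

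Members and gene lists were chosen with earlier results of these data known. Named besides the members were Ckmt2, Slc16a12, Slc22a2, Slc47a1 and Azin2, up to 4 called genes per list with the largest difference and at least 50 normalized counts, defining markers of other cell types, and the 2 nearest profiles per tested member. Alternatives were DESeq2 1.42.0, other scalings, other filters, a replicate block and each kidney left out. Protein sequences were not used here.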

Additional observations from a re-analysis of the deposited data

How the results depend on the processing

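Direction and call were kept in each of 13 alternatives for Gatm, Gamt, Ckb, Ckmt1 and Slc6a8, and in each of 12 for Agmat, which could not be tested when at least 10 counts were required in every kidney. In the other filtered edgeR fits Agmat entered through its control kidneys alone, so its call there is not independent of the filter. With a kidney left out, the log2 differences ranged from -1.36 to -1.24 (Gatm), -2.35 to -2.01 (Gamt), -1.94 to -1.65 (Ckb), -0.77 to -0.51 (Ckmt1), -3.20 to -2.24 (Agmat) and -0.14 to -0.01 (Slc6a8, adjusted P 0.13 to 0.90 over its alternatives, by edgeR or DESeq2). No scaling or left-out kidney shifted the median of all genes by more than 0.0229. Leaving out globin and mitochondrial genes removed 10 symbols that hold 0 counts, so nothing could change.

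Other values moved. In raw reads rather than per length the share of Ckb among the creatine kinases was 76.6% in control and 58.8% in FeD kidneys. With at least a 2-fold difference, 8 of the 71 tested genes of the pathway lists were lower and 2 higher. Over all tested genes 5.69% were lower and 4.34% higher at that threshold.

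Replicate numbers 1 to 3 occur in both groups but do not mark shared animals. Deviations of same-numbered kidneys correlated at -0.162, 9.6e-05 and -0.0348, and no control kidney correlated best with the FeD kidney of its own number. With the replicate number as a block, 4 members were again lower by at least 2-fold and 5 at the adjusted P, Agmat among them. Of the 15145 genes tested in that fit, 879 were lower by at least 2-fold and 3344 at the adjusted P. The members' log2 differences were -1.32 (Gatm), -2.18 (Gamt), -1.85 (Ckb), -0.67 (Ckmt1), -0.09 (Slc6a8) and -2.76 (Agmat). Without the filter, edgeR gave Ckm a log2 difference of 0.87 (SE 1.48, adjusted P 0.69, Benjamini-Hochberg), from too few reads to give a direction. Low counts limit Ckm, which could not be tested, and Agmat with 2 to 7 reads in FeD kidneys.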
